A study of Mus musculus with 12 samples.

Results

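The germline RNA-binding and piRNA genes described here are 9 genes that germ cells use to hold, translate and silence RNA. They are Ybx2, Cpeb1, Dazl and Zar1, which encode proteins that bind and regulate stored mRNA, Ddx4, which encodes the germ-granule helicase, and Piwil2, Mael, Tdrd1 and Tdrd9, which act in piRNA silencing. They were chosen by symbol, as the rows of the deposited count table whose Ensembl IDs map to these 9 names, out of 55401 rows. The study asked how dorsomorphin (DM), a compound that inhibits AMPK, acts on the dormant follicles of the ovary. Ovaries of C57Bl/6j x CBA/J F1 hybrid mice 7 to 8 days old were cultured for 5 days with DM or with its solvent DMSO, called control here and sham in the sample labels, and oocytes were then cut by laser capture from fixed, stained sections. The 4 groups were oocytes of primordial follicles after control culture, of primordial follicles after DM, of primary follicles after control culture and of primary follicles after DM, with 3 libraries each and 12 in all. None of the groups carried an engineered allele, each library held RNA pooled from many oocytes and amplified, and follicles were picked by their shape, so cells next to an oocyte could enter a capture. The labels describe the samples as in vivo while the study's methods describe culture, and the methods are followed here.

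A growing or resting oocyte transcribes mRNAs that it does not translate at once. RNA-binding proteins hold these messages in a silent store, and control of poly(A) tail length releases them when the oocyte matures. In the piRNA pathway, PIWI proteins loaded with small RNAs silence transposons inside germ granules, where Tudor-domain proteins act as scaffolds. Loss of the mouse piRNA genes listed here is best known for arresting the male germ line, while the mRNA-storage proteins are known for their roles in the oocyte.

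In GRCm38, Ybx2 (ENSMUSG00000018554.13) lies at chr11:69935796-69941605 on the plus strand, Cpeb1 (ENSMUSG00000025586.17) lies at chr7:81347026-81455465 on the minus strand, Dazl (ENSMUSG00000010592.9) lies at chr17:50279395-50293636 on the minus strand and Zar1 (ENSMUSG00000063935.3) lies at chr5:72576806-72581254 on the minus strand. Ddx4 (ENSMUSG00000021758.14) lies at chr13:112598333-112652475 on the minus strand, Piwil2 (ENSMUSG00000033644.5) lies at chr14:70372477-70429383 on the minus strand, Mael (ENSMUSG00000040629.8) lies at chr1:166201201-166238747 on the minus strand, Tdrd1 (ENSMUSG00000025081.13) lies at chr19:56826209-56870012 on the plus strand and Tdrd9 (ENSMUSG00000054003.13) lies at chr12:111971559-112068854 on the plus strand. All 9 are protein-coding genes whose exons overlap those of no other annotated gene.

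The promoters of Ybx2, Cpeb1, Zar1 and Tdrd1 are shown because the control and DM libraries of these genes did not overlap in at least 1 follicle stage, as described below. Each is the first window listed for the gene, the stretch from 250 bases before to 50 bases after a RefSeq start site in GRCm38.p6, written 5′ to 3′ on the strand of the gene. Capitals mark the 2 motifs searched on both strands, the E-box CACGTG and the E2F-type motif TCCCGC, whose reverse complement is GCGGGA. The Ybx2 window is chr11:69935649-69935948 on the plus strand, that of Cpeb1 is chr7:81454709-81455008 on the minus strand, that of Zar1 is chr5:72581035-72581334 on the minus strand, and that of Tdrd1 is chr19:56825959-56826258 on the plus strand.
Ybx2: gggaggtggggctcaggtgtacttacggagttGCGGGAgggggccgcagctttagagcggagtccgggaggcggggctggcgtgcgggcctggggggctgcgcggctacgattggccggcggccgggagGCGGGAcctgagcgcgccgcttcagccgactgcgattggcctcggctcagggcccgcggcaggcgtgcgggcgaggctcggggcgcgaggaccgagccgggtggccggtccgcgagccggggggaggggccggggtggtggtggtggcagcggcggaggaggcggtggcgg
Cpeb1: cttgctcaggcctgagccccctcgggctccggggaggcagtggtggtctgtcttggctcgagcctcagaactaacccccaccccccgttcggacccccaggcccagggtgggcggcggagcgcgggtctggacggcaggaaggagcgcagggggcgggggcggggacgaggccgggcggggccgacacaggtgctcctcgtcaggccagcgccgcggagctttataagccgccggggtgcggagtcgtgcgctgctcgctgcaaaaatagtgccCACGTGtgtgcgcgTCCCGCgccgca
Zar1: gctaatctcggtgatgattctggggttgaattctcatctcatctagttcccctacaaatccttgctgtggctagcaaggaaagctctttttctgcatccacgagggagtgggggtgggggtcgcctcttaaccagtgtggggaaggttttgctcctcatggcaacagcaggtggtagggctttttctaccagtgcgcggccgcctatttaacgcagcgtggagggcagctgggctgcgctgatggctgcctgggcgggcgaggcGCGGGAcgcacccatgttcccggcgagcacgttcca
Tdrd1: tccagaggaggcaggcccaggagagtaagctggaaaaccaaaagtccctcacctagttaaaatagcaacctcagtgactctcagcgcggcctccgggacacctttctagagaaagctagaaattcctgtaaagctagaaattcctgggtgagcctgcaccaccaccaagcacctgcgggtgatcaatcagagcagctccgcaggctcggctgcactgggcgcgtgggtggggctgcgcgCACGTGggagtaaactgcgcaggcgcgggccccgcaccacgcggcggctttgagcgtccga
RefSeq windows were matched for 8 of the 9 genes, with 11 windows in all, and none was matched for Piwil2, whose control and DM libraries did not overlap in primary follicles. CACGTG was present in the windows of 5 of the 8 genes, which are Ddx4, Mael, Cpeb1, Tdrd1 and Tdrd9. By window, it was present in 6 of the 11 (54.5%) and in 7.17% of the 32544 windows of the RefSeq table. Overlapping windows of Tdrd1 held the same site, at -11 and -77 from their start sites, so that site was counted more than once. TCCCGC or its reverse complement was present in 5 of the 8 genes, which are Ddx4, Mael, Ybx2, Cpeb1 and Zar1. By window, it was present in 6 of the 11 (54.5%) and in 20.1% of the 32544 windows. The windows of these genes held 3 to 40 CpG dinucleotides with a median of 25, and 10 of the 11 lay above the median of 7 over all windows. The shares over all windows were not matched for CpG content. A match is a stretch of letters and not a measured binding site, and neither motif was tested against the expression values.

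Total counts per library ranged from 14034586 to 42639326, and a count of 0 allowed up to 3 counts, for counting error only. In CPM, the usual unit that divides each gene's count by the sum of counts in its library, that limit was 0.0704 to 0.214. Between 4206 and 10687 genes had over 3 counts in a library, with 7085 to 10687 in primordial controls, 5216 to 7616 after DM, 4206 to 7839 in primary controls and 4670 to 5314 after DM. The oocyte label was checked with 15 oocyte markers outside the 9 genes, such as Gdf9, the zona pellucida genes, Nobox and Kit. In control libraries 8 to 12 of them had over 3 counts, and in DM libraries 3 to 10 did. Their summed level was 28.5 to 421 CPM in primordial controls, 15.1 to 528 after DM, 13.4 to 1161 in primary controls and 4.76 to 87.1 after DM. Sohlh1 was at 0 in all DM libraries and had over 3 counts in 4 of the 6 controls. Sohlh2 never passed 2 counts in a library, control or DM, and Oosp1 was at 0 in the primary DM libraries. Granulosa markers were present in every library, with 4 to 9 of 10 over 3 counts and a sum of 274 to 2921 CPM in primordial and 1207 to 11211 CPM in primary libraries, of which Foxl2 alone made up 11123 CPM in the highest. Of 10 markers of stroma, vessels and blood, 4 to 9 had over 3 counts, with a sum of 1833 to 10514 CPM, and Hbb-bs was at 0 throughout. The part of these other cells in the levels below was not tested. In pooled material, fewer cells that carry an mRNA and less of it per cell cannot be told apart.

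Transcripts of the 9 genes were found in fewer DM libraries than control libraries. A gene had over 3 counts in a library in 77 of 108 cases, which were 45 of 54 in controls and 32 of 54 after DM. By group, the cases were 23 of 27 in primordial controls, 18 of 27 in primordial DM, 22 of 27 in primary controls and 14 of 27 in primary DM. Of the genes, 5, which are Dazl, Piwil2, Zar1, Tdrd1 and Tdrd9, were found in more control than DM libraries, none was found in more DM libraries, and Ddx4, Mael, Ybx2 and Cpeb1 were found equally often. That is 55.6% of these genes, beside 52.2% of all 14881 genes with over 3 counts in any library, while 20% of all genes were found in more DM libraries. In the control direction, the share of these genes lay near that of the whole table. The number of all genes with over 3 counts was 10687, 7463 and 7085 in the primordial controls and 7616, 7498 and 5216 in the primordial DM libraries. The medians of 7463 and 7498 were alike, while the highest and the lowest library were both lower after DM. In primary follicles the number was 7839, 7354 and 4206 in controls and 5314, 4670 and 4850 after DM, with medians of 7354 and 4850. Fewer genes of the whole table were thus found after DM in part of the libraries at both stages.

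**Figure D1:**
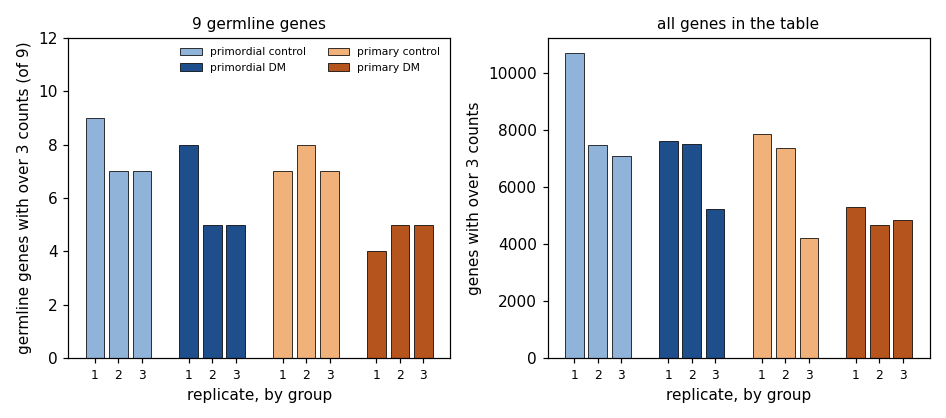
Bars give, for each of the 12 libraries, the number of the 9 germline genes (left) and of all genes in the table (right) with over 3 counts, by group and replicate number on the x axis. The germline count was 7 to 9 in control libraries, 5 to 8 in primordial DM and 4 or 5 in primary DM libraries, and the count of all genes was lowest in the third primary control library at 4206.

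Ybx2 and Cpeb1 had the highest median levels of the 9 genes per length and were present in every library. Ybx2, also called MSY2, is the germ-cell Y-box protein that packages and stabilises stored mRNA, and Cpeb1 binds the cytoplasmic polyadenylation element and sets when a stored message is translated. Ybx2 measured 552, 1009 and 1722 CPM in the primordial controls against 26.2, 76.8 and 0.713 CPM after DM, and 2116, 309 and 367 CPM in the primary controls against 0.800, 350 and 2.48 CPM after DM. In primordial follicles every control library lay above every DM library. In primary follicles the second DM library, at 350 CPM, lay among the controls, and the other two lay far below them. Cpeb1 measured 164, 448 and 358 CPM in primordial controls against 29.4, 84.2 and 0.428 CPM after DM. In primary follicles it measured 351, 222 and 930 CPM in controls against 0.364, 1.85 and 635 CPM after DM. The primordial groups of Cpeb1 again did not overlap, and the third primary DM library lay among the controls. For each of the 2 genes, 5 of the 6 DM libraries lay below all 6 control libraries, and the exception was a different primary DM library for each. Zar1 also had 5 such DM libraries, as did Gtsf1 and Igf2bp3 from the lists of other pathway genes below. For Zar1 this rests on the floor, since its lowest control held 1 count and those DM libraries 0 or 1. For Igf2bp3 the lowest control held 2 counts (0.143 CPM), and a DM library with 6 counts (0.141 CPM) lay below it. The share of all genes with this pattern was not counted.

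Dazl, which binds mRNAs and promotes their translation in germ cells, was found mostly in controls. It measured 109, 142 and 5.69 CPM in primordial controls, 43 CPM in the first primordial DM library and 0 in the other two. In primary follicles it measured 25.3, 1.92 and 0.0321 CPM in controls, and 0.0727, 0 and 0.0285 CPM after DM, which are 2, 0 and 1 counts. The groups overlapped at both stages, and 1 of 6 DM libraries had over 3 counts, beside 5 of 6 controls. Zar1, a maternal-effect gene whose product binds RNA in the oocyte, had its highest levels in the primary controls. It measured 31.1, 20.3 and 23.3 CPM there, a mean of 24.9 ± 5.59 CPM (SD, n = 3), against 0, 0.0235 and 1.08 CPM in primary DM libraries. In primordial follicles it measured 5.79, 0.0270 and 0.132 CPM in controls, of which the last 2 values are 1 and 2 counts, and 0 in all 3 DM libraries. Control and DM libraries of Zar1 did not overlap at either stage, although 2 of the primordial controls had under 3 counts, the limit that a count of 0 allows.

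Ddx4, the DEAD-box helicase of germ granules, was found in all 12 libraries with a very wide spread inside each group. It measured 69.8, 718 and 0.728 CPM in primordial controls, 0.392, 547 and 2.38 CPM in primordial DM, 230, 302 and 0.482 CPM in primary controls, and 0.473, 1113 and 8.64 CPM in primary DM libraries. Each group held a library below 1 CPM and another at 302 CPM or above, so no pair of groups separated. The second primary DM library held 99.2% of the Ddx4 signal of its group, and the second primordial DM library held 99.5%.

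Of the 4 piRNA genes, Piwil2 and Mael had the higher median levels per length in controls. Piwil2, also called MILI, is the PIWI protein that carries piRNAs, and Mael is a germ-granule protein needed for transposon silencing. Piwil2 measured 95.1, 147 and 29.9 CPM in primordial controls against 50.7, 11.6 and 0.0475 CPM after DM, and these groups overlapped. In primary follicles it measured 1.26, 208 and 0.0643 CPM in controls, which are 43, 2915 and 2 counts, against 0, 0 and 1 counts after DM, so the groups did not overlap, with the second control far above the other two and the third at 2 counts. Mael measured 100, 57.4 and 0.0661 CPM in primordial controls against 8.19, 0.0860 and 0.190 CPM after DM. In primary follicles Mael measured 33.5, 373 and 0.129 CPM in controls against 0.145, 1.10 and 3.56 CPM after DM. The third control library of Mael lay with or below the DM libraries at both stages, so the groups overlapped.

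Tdrd1 and Tdrd9, which encode the Tudor-domain scaffold of PIWI proteins and a Tudor-domain helicase, had the lowest levels of the 9 per length in controls. Tdrd1 measured 1.72, 1.11 and 0.794 CPM in primordial controls, on 65, 41 and 12 counts, and 0.445, 0.516 and 0 CPM after DM. Those 2 groups did not overlap. In primary follicles Tdrd1 measured 0, 0.214 and 1.06 CPM in controls and 0, 1.15 and 0 CPM after DM, and the groups overlapped. Tdrd9 measured 16.8, 0 and 15.1 CPM in primordial controls and 4.74, 0.0287 and 20.8 CPM after DM. In primary follicles Tdrd9 measured 0, 12 and 0.418 CPM in controls and 0, 0.0469 and 0 CPM after DM. Tdrd9 overlapped at both stages.

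**Figure D2:**
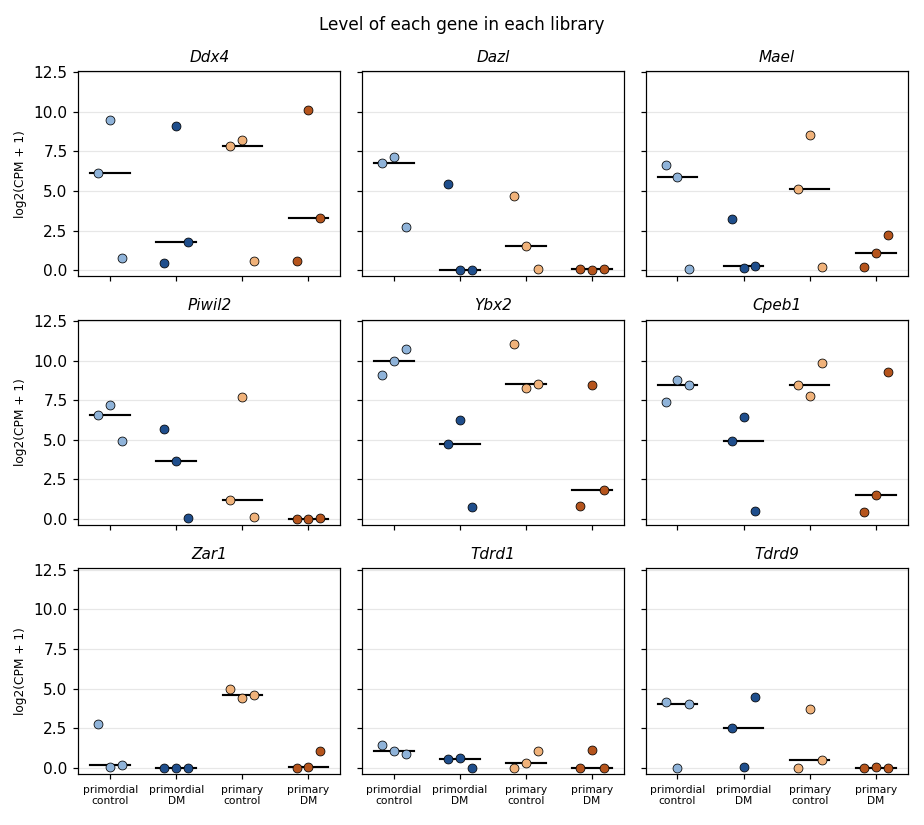
Each panel shows 1 gene, with a point for each library, groups on the x axis and log2(CPM + 1) on the y axis, and a bar at the group median. Ybx2 and Cpeb1 sit high in all 6 control libraries, Zar1 is high in the 3 primary controls at 20.3 to 31.1 CPM, and Ddx4 runs from below 1 CPM to at least 302 CPM inside each group.

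Per length, as CPM per kilobase of exon (RPKM), the order of median levels over the 6 control libraries was Ybx2 at 414, Cpeb1 at 84.6, Ddx4 at 49.8, Mael at 26.2, Piwil2 at 11.8, Dazl at 4.05, Zar1 at 3.77, Tdrd9 at 1.14 and Tdrd1 at 0.170 RPKM. Each gene's range overlapped that of the next gene in the order. Ybx2 lay above Cpeb1 in 5 of 6 control libraries, and Piwil2 lay above Dazl in only 3 of 6. Over the 6 DM libraries the order began with the same 4 genes, at median levels of 7.60 RPKM for Ybx2, 3.73 for Cpeb1, 1.83 for Ddx4 and 0.373 for Mael. The other 5 genes had DM medians of at most 0.0409 RPKM.

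In oocytes of primordial follicles, 7 of the 8 genes that could be tested had a log2 fold change below 0 with DM, and none passed the test. The comparison used edgeR's quasi-likelihood test on 6699 genes with Benjamini-Hochberg adjustment, which called 1 gene of the whole table, or 0.0149%, and 0 of these genes. DESeq2 called 0 of the 7 that it gave an adjusted p, beside 12.5% of all genes it tested. Ybx2 had a log2 fold change of -4.63 ± 2.03 (SE), with an unadjusted p of 0.0224 and an adjusted p of 0.658 by edgeR, and was the only one of the 8 with an unadjusted p under 0.05, beside 4.85% of all genes tested in that direction. Cpeb1 had -2.78 ± 2.66 (adjusted p = 0.815) and Mael had -3.73 ± 3.25 (adjusted p = 0.791). Dazl, Piwil2 and Tdrd1 had log2 fold changes of -2.32, -1.86 and -1.38, with adjusted p from 0.881 to 0.906. Dazl ran from -14.26 without the first DM library to -1.04 without the second control library. Ddx4 had -0.30 ± 2.25 and Tdrd9 had 0.58 ± 2.77. Ddx4 ranged from -7.18 without the second DM library to 3.59 without the second control library, and Tdrd9 was -1.59 without the third DM library and was -0.35 when library size alone was used for scaling. Zar1 was removed by the filter on low counts, and against 0 counts in DM its control level was at least 19.4-fold higher, with the limit of 3 counts taken over the DM group. Without the first control library that ratio was 0.778, so the value rests on that library. Of the 8 genes tested, 3, which are Ybx2, Cpeb1 and Tdrd1, had all DM libraries below all control libraries, as did 11% of all genes tested, and 0 had them above, beside 2.06%. Zar1, outside that test, also lay apart, by 1 and 2 counts in the lower controls against 0, a gap within the limit that a count of 0 allows.

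In oocytes of primary follicles 5 of the 9 genes passed the filter on low counts, and again none was called. The edgeR test covered 4181 genes and called 0, or 0%, at an adjusted p under 0.05, with 0 of the 5 germline genes at an unadjusted p under 0.05, beside 8.11% of all genes lower and 4.04% higher, and DESeq2 called 0 of the 4 that it gave an adjusted p, beside 21.2% of all genes it tested. Zar1 had a log2 fold change of -5.50 ± 3.32 (SE, edgeR adjusted p = 0.410) and Mael had -4.19 ± 3.21 (adjusted p = 0.496). Ybx2 had -1.28 ± 3.04 (adjusted p = 0.833), and its value was -8.05 without the second DM library. Cpeb1 had -1.37 ± 2.99 (adjusted p = 0.820), with -8.56 without the third DM library and 1.72 without the third control library. Ddx4 had 3.61 ± 3.32 (adjusted p = 0.562) and turned to -3.10 without the second DM library. Dazl, Piwil2 and Tdrd9 were under the filter and had 3, 1 and 2 counts in all 3 DM libraries together. Over the summed libraries, Piwil2 was 3931-fold lower after DM, with a 95% counting interval of 705 to 155331, and 72.6-fold lower without the second control library. Dazl was 394-fold lower (interval 134 to 1912), and 21.8-fold without the first control library. Tdrd9 was 120-fold lower (interval 32.8 to 1000), and 10.5-fold without the second control library. These intervals cover the counting of reads and not the spread between libraries. In a fit without the filter, Tdrd1 had -0.01 ± 3.28, with -8.14 without the second DM library and 4.68 without the third control library, and above 0 with DESeq2's size factors at 0.21. Of the 5 genes tested, 1, Zar1, had all DM libraries below all control libraries, beside 11.8% of all genes tested, and 0 had them above, beside 1.27%. Zar1 passed the filter through these controls, the group where it was high. Piwil2, under the filter, also lay apart, with 2 counts in the lowest control library against at most 1 after DM.

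Across both stages, with stage as a term and all 12 libraries in 1 fit, the 9 genes passed the filter and 8 had log2 fold changes below 0 with DM, beside 55.8% of all genes tested. The edgeR test called 0 of 8500 genes, or 0%, and DESeq2 called 0 of the 5 that it gave an adjusted p, beside 16.2% of all genes it tested. Zar1 had -6.27 ± 2.67 (SE), with an unadjusted p of 0.0190 and an edgeR adjusted p of 0.270, the only one of the 9 under 0.05 before adjustment, beside 9.58% of all genes in that direction and 3.19% in the other. Zar1 had over 3 counts in 5 libraries, of which 3 were the primary controls, so it passed the filter through the group where it was high. Its unadjusted p is therefore a description. Piwil2 had -5.62 ± 3.49, Dazl -4.25 ± 2.70 and Mael -3.71 ± 2.35, with adjusted p from 0.542 to 0.561. Ybx2 had -2.81 ± 2.14, Tdrd9 -2.08 ± 3.08, Cpeb1 -2.00 ± 1.89 and Tdrd1 -0.59 ± 2.00, and Ddx4 alone lay above 0 at 1.86 ± 2.30, with -1.46 without the second primary DM library. Tdrd1 was 0.67 without the third primary control library. On the log2(CPM + 1) scale, an exact two-sided permutation test that exchanged DM and control within each stage had 400 arrangements and a smallest possible p of 0.005. In this permutation test Ybx2 had a difference of -5.79 (p = 0.01), Cpeb1 had -4.61 (p = 0.02) and Piwil2 had -3.04 (p = 0.025). Dazl had -2.90 (permutation p = 0.06), Mael -3.24 (p = 0.095), Tdrd1 -0.41 (p = 0.17), Tdrd9 -0.88 (p = 0.385) and Ddx4 -1.30 (p = 0.595), and Zar1 had over 3 counts in too few libraries to enter. With Benjamini-Hochberg adjustment over all 6199 genes in that permutation test, the lowest adjusted p of the 8 was 0.378, for Ybx2. Of the 8 genes, 3 had a permutation p under 0.05, and 8.94% of all 6199 genes did so in the DM-lower direction. The permutation test was chosen after the values had been seen, and the genes with earlier results of these data known, so this count is a description.

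**Figure D3:**
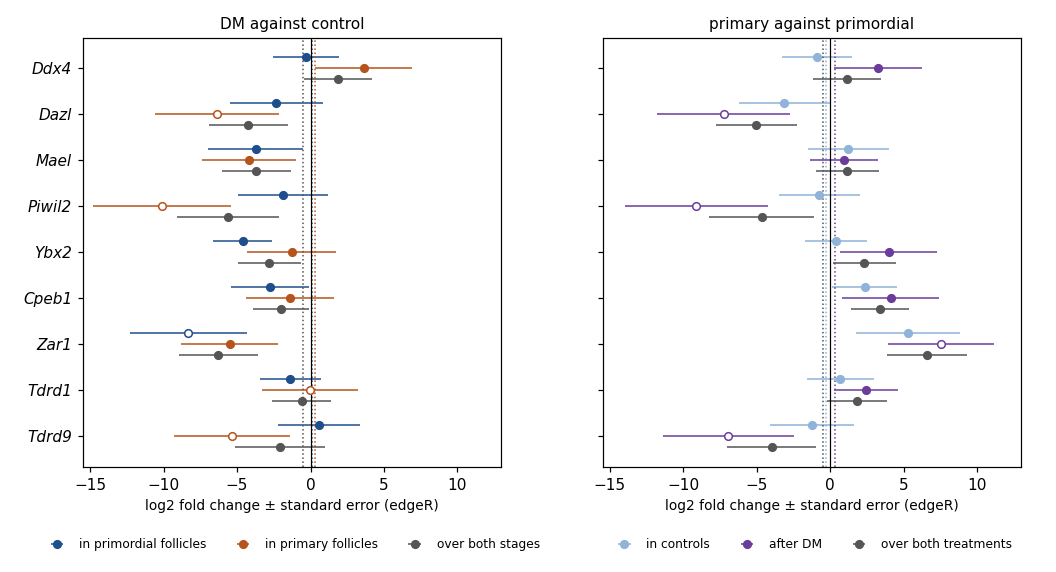
Points give the edgeR log2 fold change of each gene and bars its standard error, for DM against control (left) and primary against primordial follicles (right). Filled points passed the filter on low counts, open points come from the fit without it and depend on the prior count where a group was at or near 0, and dotted lines mark the median of all genes tested. With DM most points lie left of 0, Zar1 is at -6.27 over both stages, and the standard errors run from 1.89 to 4.85.

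The centre of the whole table moved with the way libraries were scaled. In primordial follicles the median log2 fold change of all genes tested was 0.13 with the TMM factors used above, 0.56 with the size factors of DESeq2 and -0.43 with library size alone, and the median of the 9 genes, the one under the filter included, was -2.32, -2.21 and -2.59. The first of these is also -2.32 with Zar1 set at its bound, and over the 8 genes tested the TMM median was -2.09. In primary follicles the median of all genes was 0.31, 2.04 and -0.96, and that of the 9 genes, including 4 under the filter with few or no counts in a group, was -4.19, -1.84 and -6.14. Over the 5 genes tested the TMM median was -1.37. With TMM, 7 of the 8 genes tested were below 0 in primordial and 4 of the 5 in primary follicles, beside 48% and 47.4% of all genes tested. Over the 9 genes the numbers below 0 under the 3 scalings were 8, 8 and 9 in primordial and 8, 7 and 8 in primary follicles. None of the 9 genes was found to differ between stages in its DM difference. The interaction of stage and DM called 0 of 8500 genes by edgeR, or 0%, with 0 of the 9 under an unadjusted p of 0.05. DESeq2 called 0 of the 9 for the interaction, beside 11.4% of all genes it tested, and how many of the 9 it gave an adjusted p was not counted. The lowest adjusted p among the 9 was 0.306, for Piwil2.

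Between primary and primordial follicles in control culture, Zar1 was the one gene of the 9 whose groups did not overlap. Zar1 passed the filter through the primary controls, where it was high. Its primary controls measured 20.3 to 31.1 CPM and its primordial controls 0.0270 to 5.79 CPM, a log2 fold change of 5.29 ± 3.54 (SE, edgeR adjusted p = 0.802), and groups lay apart in the same direction in 1.23% of the 6726 genes tested, and in the other direction in 8.46% of them and 0 of the 9. The fit called 0 genes, or 0%, with 0 of the 9 at an unadjusted p under 0.05 and 0 by DESeq2, which gave 5 of them an adjusted p and called 5.59% of all genes it tested. Dazl had -3.12 ± 3.11 and Cpeb1 2.34 ± 2.23, and Cpeb1 was -0.28 without the third primary control library. The other 6 genes had values from -1.24 for Tdrd9 to 1.24 for Mael. Among these, Ybx2 at 0.38 and Tdrd1 at 0.68 were -0.24 and -1.53 with library size alone. Leaving out 1 library also turned the direction of Ddx4, Mael, Piwil2 and Tdrd1, to 2.80 for Ddx4 and 0.24 for Piwil2 without the second primordial control, to -1.16 for Mael without the second primary control and to -3.71 for Tdrd1 without the third primary control.

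After DM, 5 of the 9 genes passed the filter and edgeR called 0 of 4331 genes, or 0%, with 0 of the 5 under an unadjusted p of 0.05, beside 11.7% of all genes lower and 5.54% higher. None of the 5 had a log2 fold change below 0, beside 46.7% of all genes tested. Dazl, Piwil2, Tdrd9 and Zar1 were under the filter, with few or no counts in a group. In the fit without it they had -7.26, -9.12, -6.96 and 7.54, so 3 of the 9 genes lay below 0. Summed counts were 1645 in primordial DM against 3 in primary DM for Dazl, and 619 against 2 for Tdrd9. The first primordial DM library held 100% of the Dazl signal of its group. DESeq2 gave 5 of the 9 an adjusted p and called 2, beside 24.3% of all genes it tested, with Piwil2 lower in primary follicles with a log2 fold change of -7.47 (adjusted p = 0.0326) and Zar1 higher with 8.76 (adjusted p = 0.0311). These calls rest on few libraries. Piwil2 had 1937, 406 and 1 counts in primordial DM against 0, 0 and 1 counts in primary DM libraries. Zar1 had 0 counts in primordial DM and 0, 1 and 38 counts in primary DM, at least 3.61-fold higher, with a ratio of 0.115 without the third primary DM library. In edgeR without the filter the adjusted p of both genes was 0.351. None of the 5 genes tested had all primary DM libraries below or all above the primordial DM libraries, beside 17% and 1.45% of all genes tested. Piwil2, under the filter, lay apart by no more than 1 count in its lowest primordial library against 0, 0 and 1. Ddx4, Ybx2, Cpeb1 and Tdrd1 had log2 fold changes of 3.23, 3.97, 4.11 and 2.43, and each turned below 0 when 1 primary DM library was left out. Without the second, Ddx4, Ybx2 and Tdrd1 had -3.99, -3.14 and -5.98, and without the third Cpeb1 had -3.15. Mael had 0.95, with -0.90 when library size alone was used and -0.11 without the third primary DM library. Over both treatments Zar1 had 6.60 ± 2.71 (unadjusted p = 0.0149, edgeR adjusted p = 0.285), the only one of the 9 under 0.05 before adjustment, beside 3.45% of all 8500 genes in that direction and 8.26% in the other. This value rests on the same primary controls, which let Zar1 through the filter, as its DM value over both stages. They are not separate results. The fit over both treatments called 0 genes, or 0%, and DESeq2 called 0 of the 5 that it gave an adjusted p, beside 14.7% of all genes it tested. Dazl had -5.03 ± 2.75 (adjusted p = 0.482). Of the 9 genes, 3 were below 0, beside 56% of all genes, and none had all 6 primary libraries below all 6 primordial ones, beside 0.529%. The DM comparisons share their control libraries with the stage comparison in controls and their DM libraries with the stage comparison after DM.

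Other genes of the same pathways were read from a list of 20 piRNA genes and a list of 26 genes of mRNA storage and translation. Of the piRNA genes, 14 had over 3 counts in any library, and Piwil1, Piwil4, Pld6, Tdrd6, Henmt1 and Tex19.1 had none over it. In primordial follicles 6 of the 20 were tested, 5 had log2 fold changes below 0 with DM, the median was -3.24 and 0 were called. In primary follicles 3 of the 20 were tested, 2 were below 0, the median was -0.64 and 0 were called. Of the storage list, 16 of 26 were tested in primordial follicles with 9 below 0 and a median of -1.12, and 14 in primary follicles with 6 below 0 and a median of 0.90, with 0 called at either stage. By edgeR neither list held a called gene in any of the 7 comparisons, the interaction included, and list genes were not read from DESeq2.

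Cpeb3, a relative of Cpeb1 that also regulates translation, was the one gene of the lists whose 12 libraries separated by treatment. It measured 46.3, 664 and 166 CPM in primordial controls against 0.262, 0.287 and 0.0950 CPM after DM, and 231, 82.2 and 967 CPM in primary controls against 0.254, 0.328 and 0.200 CPM after DM. All 6 DM libraries lay below all 6 control libraries, as they did in 0.624% of the 8500 genes tested over both stages. Its log2 fold change was -10.21 ± 3.83 (SE, edgeR adjusted p = 0.497) in primordial and -10.96 ± 4.58 (adjusted p = 0.395) in primary follicles, and -10.44 ± 2.76 (unadjusted p = 0.000155, adjusted p = 0.165) over both stages. Mov10l1, the helicase that feeds precursors into piRNA production, measured 0.423, 27.7 and 0.661 CPM in primordial controls against 0.0587, 0 and 0 CPM in primary controls, which gave -8.51 ± 3.86 (edgeR adjusted p = 0.749). Ybx3, another Y-box protein, measured 201, 304 and 168 CPM in primordial controls. In primary controls it measured 19.5, 60.4 and 3772 CPM, so that the third library alone was high, and the fold change was 4.79 ± 2.33 (edgeR adjusted p = 0.749). Igf2bp2, an mRNA-binding protein, had -7.00 ± 3.88 in primary follicles with DM (edgeR adjusted p = 0.397), on controls of 791, 34.1 and 0.450 CPM against 0.516 to 0.684 CPM after DM. Rbpms2 had -7.28 ± 3.88 in primordial follicles with DM (edgeR adjusted p = 0.658), on 1 control library at 164 CPM. Eif4enif1, the 4E-T protein that holds silent mRNA, had 5.60 ± 3.43 between primary and primordial follicles after DM (edgeR adjusted p = 0.353), with DM values of 646, 0.235 and 672 CPM in primary and 33.1, 0.631 and 25.2 CPM in primordial follicles.

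**Figure D4:**
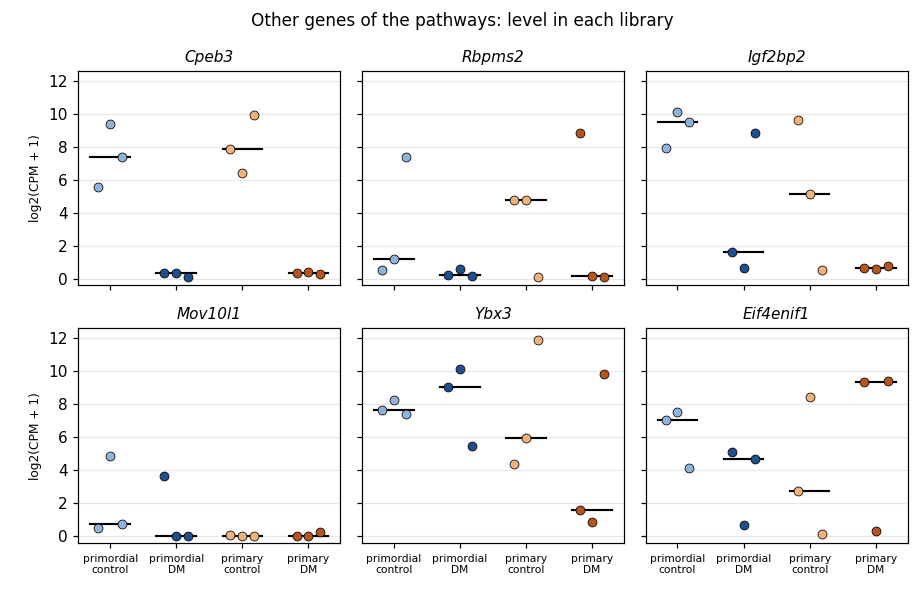
Points give log2(CPM + 1) of the 6 named pathway genes in each of the 12 libraries by group, with a bar at the group median. Cpeb3 lies at 46.3 CPM or more in each control library and at 0.328 CPM or less in each DM library, while Rbpms2, Ybx3 and Eif4enif1 have single libraries far from the rest of their group.

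Across the 12 libraries, the levels of these genes moved together only in part. Spearman's rho of log2(CPM + 1) between 2 of the 8 genes with over 3 counts in at least 6 libraries had a median of 0.282 over 28 pairs, with a range from -0.217 to 0.691, beside a median of 0.185 over all pairs of 6199 genes. The points share libraries, depth and treatment groups, so these are descriptions. Among 27 genes of the 9 and of the lists, the pattern most like that of Ybx2 was that of Cpeb3 at a rho of 0.874. The closest to Mael was Cpeb4 at 0.734, to Dazl Ddx6 at 0.697, to Piwil2 Dazl at 0.691, to Tdrd9 Ybx1 at 0.662 and to Cpeb1 Gtsf1 at 0.648. Ddx4 and Tdrd1 had no gene above 0.542, which was Tdrd5 for Ddx4, and 0.528, which was Igf2bp3 for Tdrd1.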

How the data were processed

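RNA of oocytes cut by laser capture was measured in 12 libraries, 3 for each of 4 groups. The labels and methods name a TruSeq RNA Access kit, which captures exons with probes, and also Smart-seq II, which the methods give for collected oocytes. The methods do not state which of them made these 12 libraries. Whether probes cover genes at 0 in every library was not tested. Per the labels and the study's methods, the authors trimmed reads with Trim Galore, aligned them to mm10 (STAR per the labels, TopHat2 per the methods) and counted them with featureCounts. The counts per gene were deposited without normalization, with no column of other samples (0). Symbols, exon lengths and coordinates came from GENCODE vM21 annotation of GRCm38, the same build, with 55141 of 55401 IDs matched. Exons of the 9 genes overlapped no other gene. The study's figure legends call the libraries of a group biologically independent, and they differed by more than counting noise (smallest chi-square per degree of freedom 1146).

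Tests used edgeR 4.0.16 in R 4.3.3 (filterByExpr, TMM, quasi-likelihood test, prior count 0.125, Benjamini-Hochberg adjusted p under 0.05), fitted to all genes. Alternatives were DESeq2 1.42.0, its size factors or library size alone in edgeR, no filter, at least 10 counts, a prior count of 2, an unadjusted p, 1 fit to all 12 libraries, replicate numbers as a block, and leaving out each library. The exact permutation tests were chosen after seeing the data. CPM used total counts and a pseudocount of 1 on the log2 scale, and other steps used Python 3.11.15 and SciPy 1.17.1. The code was tested on simulated counts.

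The 9 genes and the lists were chosen with earlier results of these data known. The text names the 9 genes, any list gene with an adjusted p under 0.05 and the 2 list genes with the smallest unadjusted p in each comparison of 2 groups. Replicate numbers were not used as pairs in the main fits. Over 18 same-numbered pairs the correlation of deviations from group means was -0.0447 to 0.0512. With libraries that vary this much, such values cannot tell whether libraries shared ovaries.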

Additional observations from a re-analysis of the deposited data

How the results depend on the processing

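No alternative changed the edgeR count of 0 genes called among the 9, in any of the 7 comparisons, except by a change of threshold or tool. At an unadjusted p under 0.05, 1 gene passed in primordial follicles with DM, 1 over both stages with DM and 1 between stages over both treatments. DESeq2 called 2 after DM between stages, where it called 24.3% of all genes it tested, and the exact permutation test gave 3 at an unadjusted p under 0.05 over both stages with DM. With at least 10 counts in every library, 2 or 3 of the 9 genes could be tested. The sample titles and the methods do not say whether replicate numbers pair libraries, and a replicate block gave 0 called genes in each comparison. With the block, Ddx4 was 0.87 and Tdrd1 -2.64 between stages in controls, and Cpeb1 was -2.59 and Tdrd1 -0.24 between stages after DM, each with the sign opposite to the fit without it, and Dazl with DM in primordial follicles was -9.31. Signs also turned with library size alone, for Tdrd9 in primordial follicles with DM (-0.35), for Ybx2 (-0.24) and Tdrd1 (-1.53) between stages in controls, for Mael (-0.90) between stages after DM and for Tdrd1 (-0.64) over both treatments. Tdrd1 in primary follicles with DM was 0.20 by DESeq2, 0.21 with its size factors and 0.18 with all 12 libraries in 1 fit. In the permutation test, Ddx4 over both stages with DM was -1.30, and Ybx2 and Tdrd1 between stages were -0.45 and -0.34. The cause of these turns was not tested. Other settings left the sign of 373 values as it was, made 2 pass the threshold and turned 15.

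Leaving out 1 library turned 26 of 432 log2 fold changes. With DM in primordial follicles, Ddx4 ran from -7.18 to 3.59 and Tdrd9 from -1.59 to 1.17. With DM in primary follicles, Cpeb1 ran from -8.56 to 1.72, Ddx4 from -3.10 to 4.39 and Tdrd1 from -8.14 to 4.68. Over both stages with DM, Ddx4 ran from -1.46 to 3.78 and Tdrd1 from -3.32 to 0.67. Between stages in controls, Cpeb1 ran from -0.28 to 3.72, Ddx4 from -1.54 to 2.80, Mael from -1.16 to 1.83, Piwil2 from -6.46 to 0.24 and Tdrd1 from -3.71 to 2.18. Between stages after DM, Cpeb1 ran from -3.15 to 5.41, Dazl from -8.03 to 3.47, Ddx4 from -3.99 to 9.96, Mael from -0.11 to 4.93, Tdrd1 from -5.98 to 2.96 and Ybx2 from -3.14 to 5.36. Between stages over both treatments, Ddx4 ran from -2.10 to 3.14, Tdrd1 from -0.52 to 2.36 and Ybx2 from -0.66 to 2.95. With 3 libraries in a group and standard errors of 1.89 to 4.85 for the 9 genes, an adjusted p above 0.05 does not show that levels were equal.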

Other observations

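Gtsf1, a small zinc-finger partner of PIWI proteins on the piRNA list, was named after its values were seen. It measured 101, 55.7 and 218 CPM in primordial controls against 0, 1.66 and 0 CPM after DM. In primary follicles it measured 13.1, 122 and 1.74 CPM in controls against 0, 0.0704 and 6.84 CPM after DM. The primordial groups did not overlap, with DM lower, as in 11% of all genes tested there and in Tdrd5 and Cpeb3 of the lists. Of the 6 DM libraries, 5 lay below all 6 control libraries, as for Igf2bp3, whose lowest control held 2 counts. The share of all genes that did so was not counted. Its log2 fold change by edgeR was -7.28 ± 3.93 (SE, adjusted p = 0.658) in primordial follicles, -2.32 ± 2.84 (adjusted p = 0.660) in primary follicles and -4.57 ± 2.96 (adjusted p = 0.572) over both stages.

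The 9 genes together summed to 1115 to 2788 CPM in the 6 control libraries and to 1.85 to 1467 CPM in the 6 DM libraries, and 5 DM libraries lay below all 6 controls. How often the sums of other sets of genes did so was not counted. Ybx2 and Cpeb1, described above, made up 36.7% to 98.1% of the sum in the control libraries. Without these 2 genes the sum was 25.5 to 1066 CPM in controls and 0.691 to 1115 CPM after DM, and the groups overlapped. In the second primary DM library Ddx4 alone made up 1113 of 1467 CPM. That library had the lowest sum of oocyte markers, at 4.76 CPM, and its granulosa markers summed to 11211 CPM with Foxl2 and to 87.6 CPM without it.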
